A study of Homo sapiens with 15 samples.

Results

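The ATP-binding cassette (ABC) transporters were followed across K562 cells that had lost 1 HSP90 isoform or had acquired resistance to an HSP90 inhibitor. Members were the rows of the 2 expression tables whose symbol is ABC, a subfamily letter from A to G and a number. This gave 46 genes, all of them among the 60510 genes of the resistance table and 31 of them among the 17769 genes of the knockout table. Of these, 27 and 29 reached a log2 CPM (CPM, reads scaled to the normalized library size) of -1 in at least 3 libraries and were tested.

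ABC proteins use the energy of ATP to move substrates across membranes, and their subfamilies differ in cargo and in the membrane they sit in. ABCB1 (MDR1, P-glycoprotein), ABCG2 (BCRP) and several ABCC proteins (MRPs) pump drugs and conjugates out of the cell and are known for their part in multidrug resistance of leukemia. Most ABCA and ABCG members carry sterols and phospholipids, the ABCD members serve peroxisomes and lysosomes, a group of ABCB members sits in mitochondria, and ABCE1 and the ABCF members lack membrane domains and act on ribosomes.

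K562 is a BCR-ABL1+ chronic myeloid leukemia line with erythroid features, and all groups are derivatives of it with 3 replicates each. EV cells received the empty vector, and HSP90α-KO and HSP90β-KO cells expressed Cas9 with a guide RNA against HSP90AA1 or HSP90AB1 from a lentiviral vector and were sorted by a fluorescent marker and selected as single clones. PUHr cells came from long treatment with rising amounts of PU-H71, a purine-scaffold inhibitor of the HSP90 N-terminal domain, followed by clonal selection, and the parental (P) cells were carried along in DMSO, the solvent. The libraries were stranded mRNA libraries read once per fragment. The number of clones behind each group is not given in the sources used here, so genotype or resistance and clone cannot be told apart, and the p-values measure the spread between these replicates only, which may be technical.

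Each library held between 19594381 and 26216730 reads on genes, so that 1 read was worth 0.0381 to 0.0518 CPM. HSP90AA1 stood at 704 ± 18.7 CPM (SD, n = 3) in EV, 90.4 ± 2.34 in HSP90α-KO and 1206 ± 14.2 in HSP90β-KO. HSP90AB1 fell from 2806 ± 21.1 CPM in EV to 1913 ± 25.1 in HSP90β-KO. In the resistance table HSP90AA1 stood at 1712 ± 14.1 CPM in P and 1568 ± 21.0 in PUHr, and HSP90AB1 at 4531 ± 42.0 and 3847 ± 98.1. All 6 K562 markers used (HBG1, HBG2, HBZ, GATA1, TFRC and KLF1) were detected in every group, with a summed level of 631 to 719 CPM in the knockout table, 2553 in P and 1774 in PUHr. In HSP90α-KO the globins were below EV (HBG1 34.8 against 57.8 CPM, HBG2 6.47 against 15.0 and HBZ 20.6 against 42.6), while GATA1 (205 against 181) and KLF1 (68.2 against 57.5) were above it. In HSP90β-KO, HBZ (26.6), GATA1 (148) and KLF1 (36.5) were below EV, while HBG1 (59.9) and HBG2 (14.9) were near it. In PUHr, HBG1 (166 against 324 CPM in P), HBG2 (59.1 against 93.2) and TFRC (895 against 1413) were below P. So were GATA1 (237 against 283) and KLF1 (87.9 against 111), while HBZ was 329 in both. Of 8 markers of other blood cells, the summed level was 50.9 CPM in EV, 67.2 in HSP90α-KO, 41.1 in HSP90β-KO, 34.0 in P and 27.7 in PUHr, most of it LYZ, while MS4A1, MPO and ELANE, which only the resistance table lists, had 0 reads there. The part of these differences in the results below was not tested. Replicates of a group differed by 1.15 to 4.23 times the counting noise (chi-square per degree of freedom), so none was the same library deposited again.

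Per kilobase of exon, ABCE1 and ABCF1, which lack membrane domains, had the highest levels of the family in all 5 groups. In EV, ABCE1, the ribosome recycling factor, stood at 32.5 CPM per kb, ABCF1 at 24.0, and the mitochondrial ABCB10 at 22.5. The highest drug efflux member was ABCC4 (MRP4) at 13.5 CPM per kb, followed by ABCC5 at 8.51, ABCC10 at 6.79 and ABCC1 (MRP1) at 5.64. ABCG2 stood at 0.930 and ABCB1 at 0.303, which placed them 18th and 21st of the 31 listed members. In P cells the order began with ABCF1 at 50.3 CPM per kb, ABCE1 at 39.2 and ABCC4 at 19.2, with ABCG2 at 3.71 in 17th and ABCB1 at 0.386 in 21st place of 46. The 2 tables were normalized separately, so levels from one are set beside those of the other without a test.

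**Figure D1:**
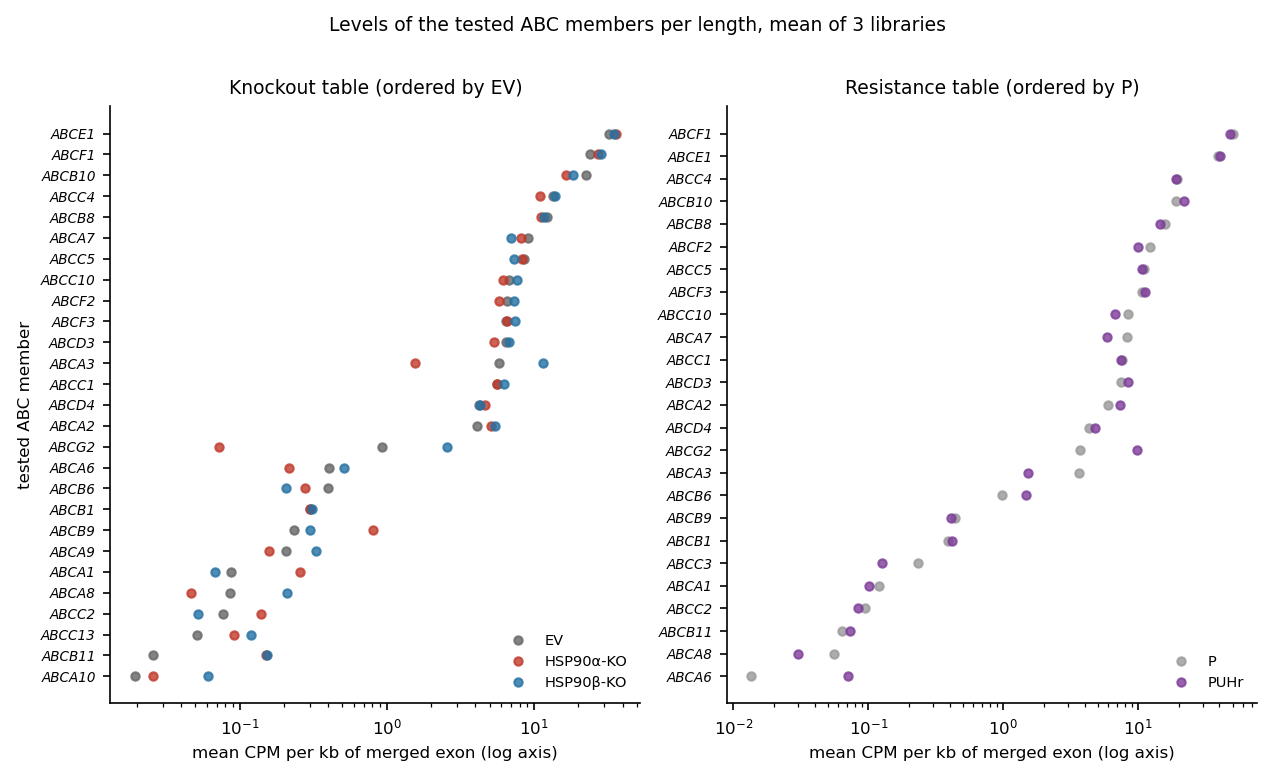
Mean CPM per kb of merged exon (log axis, mean of 3 libraries) of the ABC members reported here, with the knockout table left (EV, HSP90α-KO, HSP90β-KO) and the resistance table right (P, PUHr). ABCE1 and ABCF1 lead in every group, while ABCG2 moves from 0.930 in EV to 0.0726 in HSP90α-KO and 2.56 in HSP90β-KO, and from 3.71 in P to 9.83 in PUHr.

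Promoter sequences are shown for ABCG2 and ABCA3, which moved in every comparison below, and for ABCB1, whose libraries overlapped in all of them. They are the RefSeq promoters of GRCh38.p14, from 250 bases before to 50 after a start, printed 5′ to 3′ on the strand of the gene, which is the minus strand for all of them. RefSeq gives 5 starts for ABCG2, and 2 are shown, the first with GC boxes and the second with an antioxidant response element (ARE) match. Of the 2 starts given for ABCB1, the one with CCAAT boxes is shown, and the other has no CCAAT box. Capitals mark the GC box (GGGCGG), the ARE core (TGACNNNGC) and the CCAAT box, each on either strand.
ABCG2, chr4:88158860-88159159: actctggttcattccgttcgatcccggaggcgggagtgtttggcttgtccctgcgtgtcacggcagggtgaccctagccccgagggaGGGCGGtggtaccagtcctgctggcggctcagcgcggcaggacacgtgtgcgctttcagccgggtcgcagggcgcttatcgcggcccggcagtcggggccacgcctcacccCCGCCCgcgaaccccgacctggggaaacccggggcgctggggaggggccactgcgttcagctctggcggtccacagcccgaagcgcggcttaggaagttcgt
ABCG2, chr4:88159241-88159540: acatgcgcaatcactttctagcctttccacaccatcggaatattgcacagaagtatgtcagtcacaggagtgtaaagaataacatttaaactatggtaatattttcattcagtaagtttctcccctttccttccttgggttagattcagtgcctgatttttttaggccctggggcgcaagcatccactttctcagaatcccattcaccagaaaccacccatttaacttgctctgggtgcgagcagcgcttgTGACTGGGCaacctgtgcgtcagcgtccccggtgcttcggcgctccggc
ABCA3, chr16:2340679-2340978: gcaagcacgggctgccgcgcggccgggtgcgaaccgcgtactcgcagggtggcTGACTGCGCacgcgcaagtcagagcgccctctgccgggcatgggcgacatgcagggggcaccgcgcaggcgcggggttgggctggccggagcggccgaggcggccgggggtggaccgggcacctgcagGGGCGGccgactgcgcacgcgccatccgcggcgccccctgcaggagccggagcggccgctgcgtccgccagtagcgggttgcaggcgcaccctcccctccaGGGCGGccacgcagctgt
ABCB1, chr7:87600835-87601134: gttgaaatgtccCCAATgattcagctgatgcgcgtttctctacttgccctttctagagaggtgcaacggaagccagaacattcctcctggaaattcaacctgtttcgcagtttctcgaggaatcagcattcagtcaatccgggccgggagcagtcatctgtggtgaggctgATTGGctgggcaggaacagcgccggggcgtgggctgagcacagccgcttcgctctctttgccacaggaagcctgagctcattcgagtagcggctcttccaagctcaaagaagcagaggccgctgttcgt

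RefSeq promoters were matched for 35 of the 46 members, with 53 starts. ABCA8, ABCC1 and ABCC3 are among those without an entry. The heat shock element (HSE, the binding pattern of HSF1, searched as its inverted repeat of GAA units on both strands) was found in 0 of the 53 member promoters and in 0.490% of all 35116 promoters of the same length. An ARE core, the pattern of NRF2, was found in 12 of 53, against 13.3% of all promoters, among them ABCG2, ABCA3 and ABCB9. A GC box was found in 25 of 53, against 45.0% of all, and a CCAAT box in 12 of 53, against 34.6% of all. These matches describe the letters only, and their overlap with one another was not removed.

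To ask whether drug efflux genes moved with loss of an isoform or with resistance, each group was compared with its control. A member was called changed where its level differed more than 2-fold and limma gave an adjusted p under 0.05 (Benjamini-Hochberg over all tested genes). ABCG2 was the only member of the drug efflux group that was called changed against a control, and it was called in all 3 comparisons. With 5 CPM added before the logarithm, which shrinks the changes of low genes, it stayed called in PUHr and lost the fold threshold in HSP90α-KO (-0.91, adjusted p = 2.2e-12) and in HSP90β-KO (0.92, adjusted p = 5.6e-12). It was lower in HSP90α-KO and higher in HSP90β-KO and in PUHr. In these bulk libraries, fewer cells with a transcript and less RNA per cell cannot be told apart. ABCB1 and ABCC1 were called changed in none.

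ABCG2, an exporter of mitoxantrone, topotecan, urate and porphyrins, lies on chromosome 4 (88090150 to 88231628, minus strand, GRCh38, GENCODE 44). It had 4.95, 6.27 and 4.42 CPM in the EV libraries, 0.342, 0.570 and 0.308 in HSP90α-KO and 14.02, 14.55 and 14.41 in HSP90β-KO. The HSP90α-KO values rest on 7, 11 and 6 reads, against 104 to 130 in EV. No library of one group overlapped with another. In HSP90α-KO, ABCG2 fell by 3.44 on the log2 scale (SE 0.17, adjusted p = 1.7e-15, limma), a 10.8-fold lower level. In HSP90β-KO it rose by 1.46 (SE 0.17, adjusted p = 1.0e-07), a 2.75-fold higher level. Set against HSP90β-KO itself, HSP90α-KO differed by -4.90 (SE 0.17, adjusted p = 5.2e-19). In the resistance table, ABCG2 had 21.5, 19.4 and 21.4 CPM in P and 54.7, 56.4 and 54.2 in PUHr, again without overlap. The rise in PUHr was 1.40 (SE 0.05, adjusted p = 9.6e-12), 2.65-fold. Fold changes are on the scale of log2 CPM with the prior count of the authors, which understates changes of genes with few reads.

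ABCB1, the MDR1 pump, lies on chromosome 7 (87503017 to 87713323, minus strand). Its level was low and even, with 1.90, 2.02 and 1.91 CPM in EV, 1.90, 2.18 and 1.75 in HSP90α-KO and 1.91, 2.09 and 1.98 in HSP90β-KO, or 34 to 50 reads per library. The groups overlapped. The 95% interval of the log2 difference from EV ran from -0.35 to 0.34 in HSP90α-KO (adjusted p = 0.98) and from -0.31 to 0.38 in HSP90β-KO (adjusted p = 0.90). In P it had 2.452, 2.684 and 2.298 CPM and in PUHr 3.17, 2.68 and 2.22, with an interval from -0.24 to 0.45 (adjusted p = 0.62). A change of 2-fold lies outside each of these intervals. RUNDC3B overlaps ABCB1 on the other strand and had 2 to 13 reads per library.

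ABCC1, the first multidrug resistance-associated protein, was about 49.3 ± 1.93 CPM in EV and 65.9 ± 3.13 in P. Its log2 difference was -0.01 in HSP90α-KO (95% interval -0.12 to 0.10, adjusted p = 0.94) and -0.01 in PUHr (-0.14 to 0.12, adjusted p = 0.91), and 0.15 in HSP90β-KO (0.04 to 0.26, adjusted p = 0.037), where the libraries overlapped with EV. ABCC2 (MRP2), an exporter of glutathione and glucuronide conjugates, had 0.571, 0.530 and 0.724 CPM in EV, 1.07, 1.04 and 1.18 in HSP90α-KO and 0.286, 0.469 and 0.475 in HSP90β-KO. Its libraries were all higher in HSP90α-KO, but the log2 difference of 0.77 (SE 0.27, adjusted p = 0.016) was under the fold threshold. Between HSP90α-KO and HSP90β-KO it differed by 1.27 (SE 0.27, adjusted p = 0.00019) and was called changed.

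The abundant pumps moved little. ABCC4, an exporter of cyclic nucleotides and nucleotide analogs, was lower by 0.30 on the log2 scale in HSP90α-KO (adjusted p = 1.5e-08), with 94.6 ± 0.551 CPM against 117 ± 1.98 in EV. ABCC5 was lower by 0.22 in HSP90β-KO (adjusted p = 4.1e-05), and ABCC10 was lower by 0.13 in HSP90α-KO (adjusted p = 0.012), higher by 0.18 in HSP90β-KO (adjusted p = 0.0018) and lower by 0.31 in PUHr (adjusted p = 9.7e-05). ABCC3 (MRP3), which the knockout table does not list, had 2.66, 2.27 and 1.83 CPM in P and 1.49, 1.00 and 1.16 in PUHr. All PUHr libraries were lower, by 0.85 on the log2 scale (SE 0.20, adjusted p = 0.0025), which is short of the fold threshold. The transcribed pseudogene ABCC13 stayed near the detection limit, with 0.198 ± 0.121 CPM in EV and log2 differences of 0.53 (adjusted p = 0.30) and 0.95 (adjusted p = 0.084) in HSP90α-KO and HSP90β-KO. No EV library was above the filter for ABCC13, so that it could be tested only because it was higher in the knockouts. ABCC13 was called changed in HSP90α-KO at 1.05 without HSP90α-KO replicate 2. In HSP90β-KO it was called at 1.27 without EV replicate 2 and at 1.24 with quantile normalization.

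**Figure D2:**
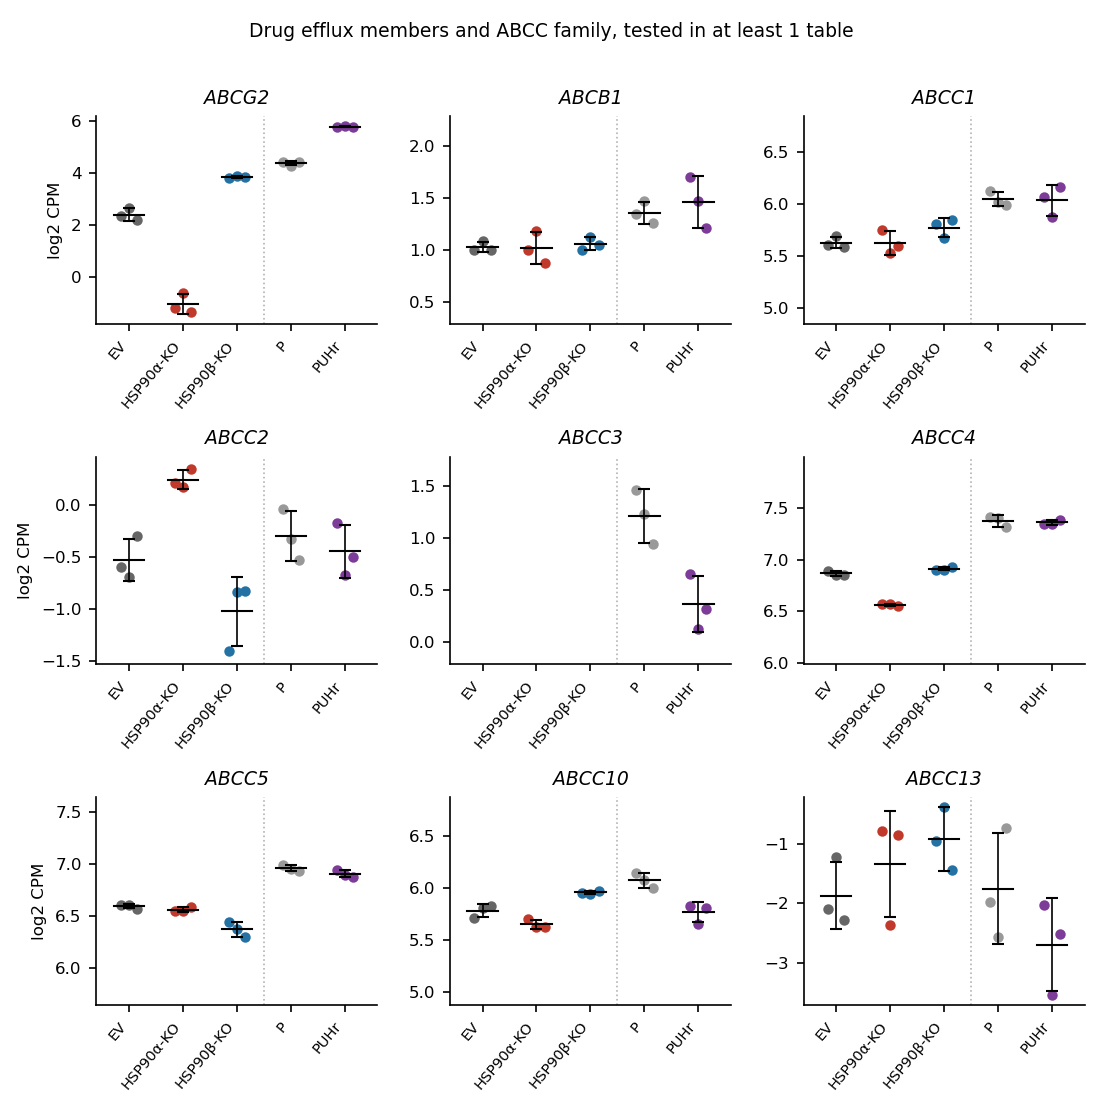
log2 CPM of the drug efflux and ABCC members in each library (points), with the mean (line) and SD (bar) of 3 libraries, for EV, HSP90α-KO, HSP90β-KO, parental (P) and PUHr; the dotted line parts the 2 tables. ABCG2 and ABCC10 stand apart from the control in every group, ABCG2 by more than 1 log2 unit each time and ABCC10 by 0.13 to 0.31, while ABCB1 overlaps with the control in all groups. ABCC3 is not listed in the knockout table, and ABCC13 was not tested in the resistance table.

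In HSP90α-KO, 6 of 29 tested members were called changed, 3 higher and 3 lower, against 5.32% of all tested genes higher and 5.01% lower. Among the drug efflux members this was 1 of 8, and among the rest 5 of 21. By adjusted p alone, 9 members were higher and 13 lower, against 27.5% and 26.6% of all genes. The median log2 fold change was -0.03 over the 29 members, -0.02 over the drug efflux members, -0.15 over the rest and -0.01 over all tested genes. ABCA3 was lower beside ABCG2, and the higher ones were ABCB11, ABCB9 and ABCA1. For ABCB11 no EV library was above the filter, so that it could be tested only because it was higher in the knockouts.

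In HSP90β-KO, 4 of 29 members were called changed, all of them higher. The rates over all tested genes were 1.83% higher and 2.65% lower. The 4 were ABCG2, 1 of 8 drug efflux members, and ABCB11, ABCA10 and ABCA8, 3 of 21 of the rest. By adjusted p alone, 15 members were higher and 5 lower, where 17.2% of all genes were higher and 17.2% lower. The median was 0.15 over the members, 0.09 over the drug efflux members, 0.16 over the rest and 0.00160 over all tested genes. Both knockout comparisons use the same EV libraries. ABCB11 and ABCA10 passed the filter on low values without any EV library above it. They could thus be tested only because they were higher elsewhere. The same holds for ABCC13, which was not called. Among genes with a mean log2 CPM of at least 1 the count was 1 (ABCG2), and the share of all genes called under that filter is not given here.

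In PUHr, 3 of 27 members were called changed, ABCG2 and ABCA6 higher and ABCA3 lower, against 5.37% of all tested genes higher and 4.69% lower. That is 1 of 8 drug efflux members and 2 of 19 of the rest. By adjusted p alone, 8 members were higher and 8 lower, and 25.6% and 25.8% of all genes. The median log2 fold change was -0.02 over the members, -0.03 over the drug efflux members, 0.03 over the rest and 0.00473 over all tested genes. No list test was made, and these counts are a description of the members.

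**Figure D3:**
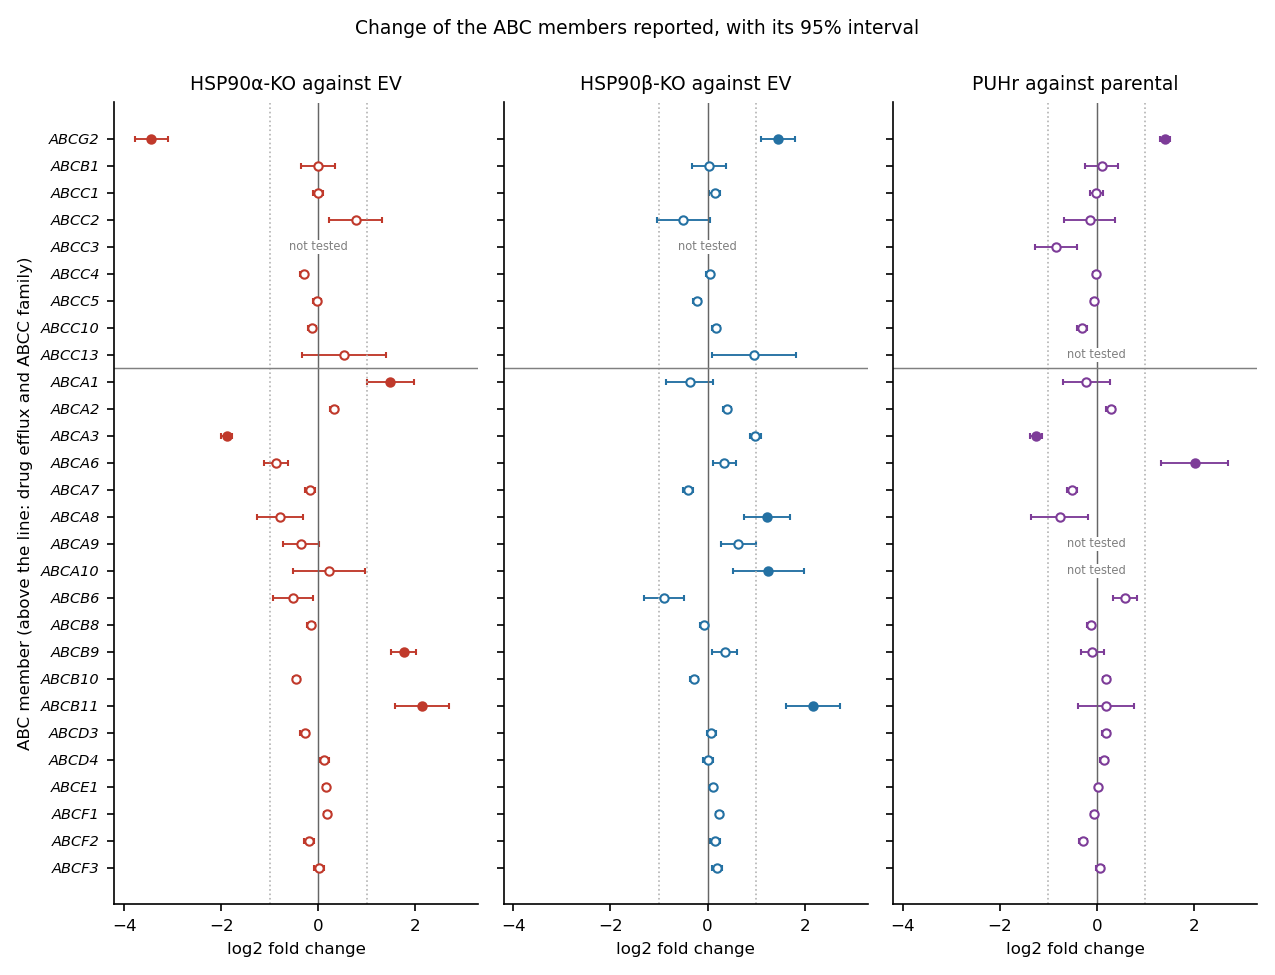
log2 fold change of the ABC members reported here (points) with its 95% interval (bars) in the 3 comparisons with a control; filled points were called changed, dotted lines mark -1 and 1, and drug efflux members stand above the horizontal line. ABCG2 is the filled point above the line in all 3 panels, at -3.44, 1.46 and 1.40, and most other members lie between -1 and 1.

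ABCA3, a lipid transporter known for loading surfactant lipids into lamellar bodies, was the member outside the drug efflux group with the steepest loss in HSP90α-KO. It lies on chromosome 16 (2275881 to 2340746, minus strand). EV libraries had 44.2, 46.9 and 44.3 CPM, HSP90α-KO 12.1, 12.8 and 11.4, and HSP90β-KO 87.9, 93.2 and 87.3. The 3 groups were fully apart. ABCA3 fell by 1.89 on the log2 scale in HSP90α-KO (SE 0.05, adjusted p = 5.6e-21) and was 0.99 higher in HSP90β-KO (SE 0.05, adjusted p = 2.2e-14), just inside the fold threshold. Without EV replicate 2 or without HSP90β-KO replicate 3 it passed, at 1.01 and 1.00. In P it had 29.8, 27.9 and 27.6 CPM and in PUHr 12.1, 11.8 and 11.7, a fall of 1.26 (SE 0.06, adjusted p = 1.6e-10). With 5 CPM added the difference in PUHr was -0.99, under the fold threshold. ABCA3 and ABCG2 were thus both lower in HSP90α-KO and both higher in HSP90β-KO, whereas in PUHr ABCA3 was lower and ABCG2 higher. The pseudogene ABCA17P overlaps ABCA3 on the other strand. Whether the counting used the strand is not given in the sources used here, and ABCA17P had 0.733 ± 0.0585 CPM in EV, 0.337 ± 0.127 in HSP90α-KO and 0.796 ± 0.141 in HSP90β-KO.

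ABCA1, which hands cholesterol and phospholipids to apolipoprotein A-I and is a classic target of the liver X receptors, had 1.24, 0.771 and 0.991 CPM in EV and 2.78, 2.85 and 3.13 in HSP90α-KO. All HSP90α-KO libraries were higher, by 1.49 on the log2 scale (SE 0.24, adjusted p = 6.3e-06). With 1 CPM added the difference was 0.98 and with 5 CPM 0.40, both under the fold threshold, and with a mean log2 CPM of at least 1 required ABCA1 was not tested. In HSP90β-KO it had 1.10, 0.512 and 0.713 CPM and overlapped with EV (log2 difference -0.37, adjusted p = 0.24), and in PUHr it overlapped with P (-0.21, adjusted p = 0.47). ABCA2 was higher in all 3 comparisons, by 0.32, 0.41 and 0.29 on the log2 scale, and ABCA7 was lower in all 3, by 0.18, 0.40 and 0.51, each with an adjusted p under 0.05 and under the fold threshold.

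A row of ABCA genes lies head to tail on the minus strand of chromosome 17, ABCA8 (68867289 to 68955392), ABCA9, ABCA6, ABCA10 and ABCA5 (69244311 to 69327244). Their cargo is less well known than that of ABCA1. ABCA9-AS1 overlaps ABCA8 and ABCA9 on the other strand, so that without strand its reads could not be told from theirs. ABCA8 had 1.094, 1.012 and 0.8005 CPM in EV, 0.439, 0.673 and 0.462 in HSP90α-KO and 2.34, 2.77 and 2.02 in HSP90β-KO, with no overlap between groups. It was called changed in HSP90β-KO (1.22, SE 0.23, adjusted p = 0.00013), and it was 0.79 lower in HSP90α-KO (adjusted p = 0.0048). ABCA6 had 5.66, 5.21 and 6.25 CPM in EV, 3.08, 3.26 and 2.87 in HSP90α-KO and 7.44, 6.53 and 7.92 in HSP90β-KO, which is 0.87 lower (adjusted p = 5.2e-07) and 0.35 higher (adjusted p = 0.022). ABCA9 was 0.35 lower (adjusted p = 0.096) and 0.64 higher (adjusted p = 0.0062). ABCA10 had 3 to 4 reads in EV, 2 to 6 in HSP90α-KO and 10 to 15 in HSP90β-KO, a rise of 1.25 in the latter (SE 0.36, adjusted p = 0.0076). Leaving out any HSP90β-KO library takes ABCA10 below the filter, so that its call rests on all 3 of them. With 1 CPM added, the HSP90β-KO differences of ABCA8 and ABCA10 were 0.78 and 0.38, and neither was called. ABCA5 had 1 to 16 reads per library and was not tested. In this row the HSP90β-KO libraries were above EV for ABCA8, ABCA9 and ABCA6. They were also above EV for ABCA10, but ABCA10 passed the filter through the HSP90β-KO libraries alone. It could thus be tested, here and between the knockouts, only because it was high in HSP90β-KO. Directly compared, HSP90α-KO was below HSP90β-KO by 2.01 for ABCA8 (adjusted p = 2.3e-08), 1.22 for ABCA6 (adjusted p = 1.0e-09), 1.03 for ABCA10 (adjusted p = 0.016) and 0.99 for ABCA9 (adjusted p = 2.8e-05), the last just inside the fold threshold. Without HSP90α-KO replicate 2, ABCA10 lost this call (-0.72, adjusted p = 0.11). ABCA9 passed it at -1.03 without HSP90α-KO replicate 1 and at -1.15 without HSP90β-KO replicate 3.

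In the resistance table the same row was close to silent. ABCA6 had 5, 2 and 6 reads in the P libraries and 23, 29 and 19 in PUHr, or 0.211, 0.084 and 0.281 CPM against 0.924, 1.21 and 0.845. The rise of 2.01 (SE 0.32, adjusted p = 9.5e-05) was the largest of the family in PUHr on the deposited log2 scale, with no overlap. It passed the filter through the 3 PUHr libraries alone and falls below it when any of them is left out. With 1 CPM added the difference was 0.74 and not called, while ABCG2 in PUHr did not fall below 1.22 in any alternative. ABCA8 had 14, 14 and 15 reads in P and 8, 6 and 10 in PUHr, a difference of -0.77 (adjusted p = 0.030). ABCA9, ABCA10 and ABCA5 had at most 8 reads in any library.

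ABCB11, the bile salt export pump of hepatocytes on chromosome 2 (168915498 to 169031324), had 5, 5 and 3 reads in EV, 24, 27 and 18 in HSP90α-KO and 24, 26 and 33 in HSP90β-KO. In CPM this was 0.198 ± 0.0722, 1.17 ± 0.237 and 1.19 ± 0.105. Both knockouts lay above EV without overlap, by 2.14 (SE 0.27, adjusted p = 2.0e-07) and 2.18 (SE 0.27, adjusted p = 3.4e-07), and between them the 95% interval was -0.60 to 0.52. No EV library was above the filter, so that ABCB11 could be tested only because it was higher in the knockouts. Both differences rest on the same EV libraries and are not independent results. With 1 CPM added the differences were 0.85 and 0.87, under the fold threshold, and with a mean log2 CPM of at least 1 required ABCB11 was not tested. In P and PUHr, 8 to 15 reads were counted per library and the groups overlapped. ABCB9, a peptide transporter of lysosomes, had 2.95, 3.47 and 2.86 CPM in EV, 10.4, 11.3 and 10.3 in HSP90α-KO and 3.96, 4.74 and 3.33 in HSP90β-KO. It rose by 1.76 in HSP90α-KO (SE 0.13, adjusted p = 4.4e-12), and by 0.95 with 5 CPM added, under the fold threshold. OGFOD2 and ARL6IP4 overlap ABCB9 on the other strand. OGFOD2 had 3.70 ± 0.859 CPM in EV and 4.15 ± 0.368 in HSP90α-KO (adjusted p = 0.30) and ARL6IP4 0.851 ± 0.0290 and 1.15 ± 0.337 (adjusted p = 0.20).

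**Figure D4:**
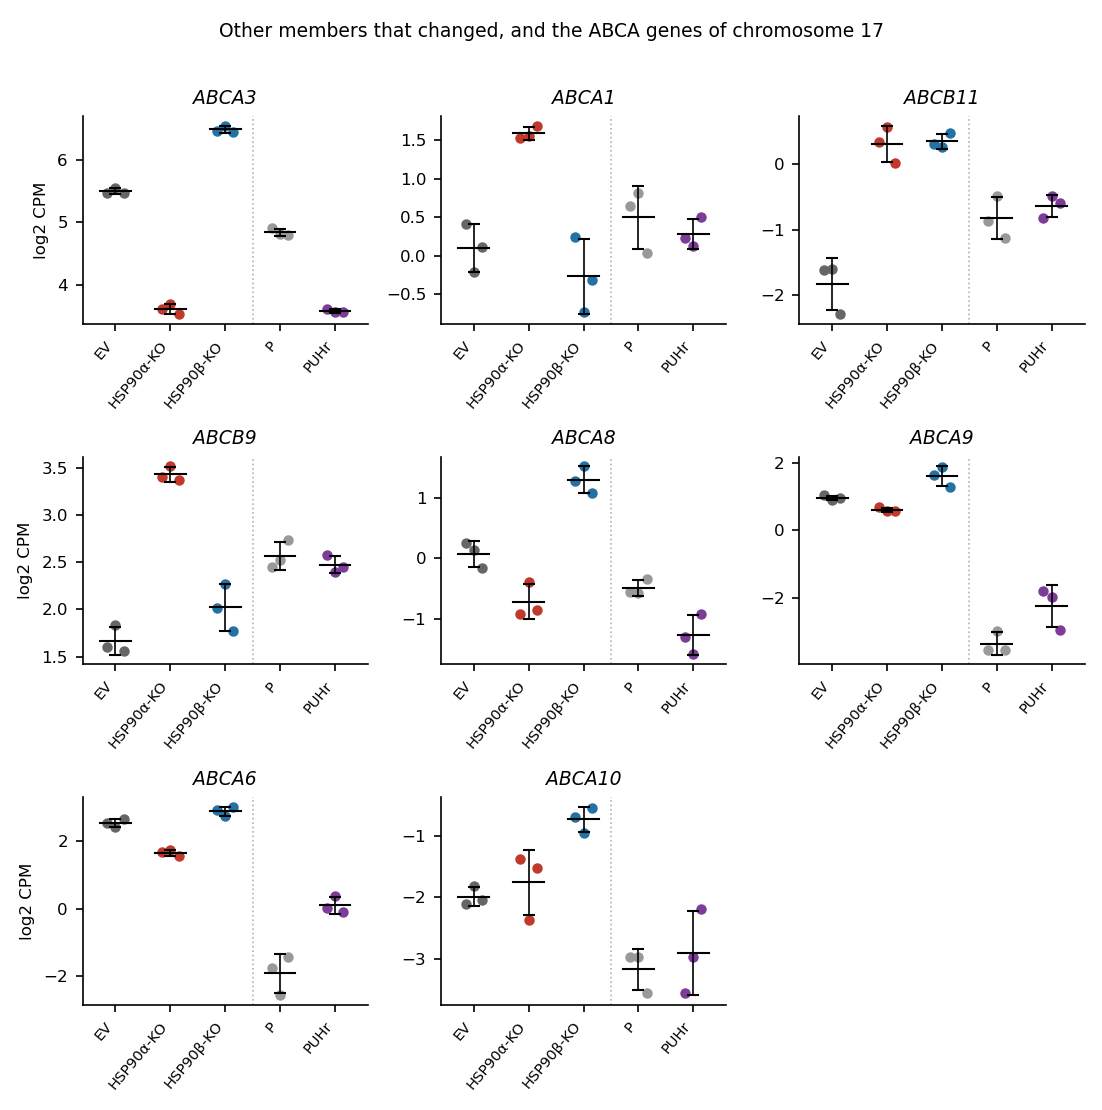
log2 CPM in each library (points), with the mean (line) and SD (bar) of 3 libraries, for other members called changed and for ABCA9; the dotted line parts the knockout table from the resistance table. ABCA3, ABCA8 and ABCA6 lie lower in HSP90α-KO and higher in HSP90β-KO than in EV, ABCB9 and ABCA1 are higher in HSP90α-KO, and ABCB11 is higher in both knockouts.

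The mitochondrial members ABCB6, ABCB8 and ABCB10 were not called changed against a control in any comparison. ABCB10, an inner membrane partner of heme synthesis, was lower by 0.45 in HSP90α-KO (adjusted p = 4.3e-11) and by 0.28 in HSP90β-KO (adjusted p = 6.3e-07) and higher by 0.19 in PUHr (adjusted p = 0.00022). ABCB6, a porphyrin transporter, had 2.09 ± 0.202 CPM in EV, 1.44 ± 0.319 in HSP90α-KO and 1.08 ± 0.124 in HSP90β-KO, and rose from 5.09 ± 0.524 in P to 7.65 ± 0.816 in PUHr (0.58, adjusted p = 0.00050). Among the translation factors, ABCF2 was 0.28 lower in PUHr (adjusted p = 1.8e-05), and ABCE1 and ABCF1 were 0.15 and 0.19 higher in HSP90α-KO (adjusted p = 0.00023 and 5.5e-05). In HSP90β-KO, ABCE1 and ABCF1 were 0.11 and 0.24 higher (adjusted p = 0.0072 and 3.7e-06). Between the knockouts neither passed (adjusted p = 0.29 and 0.19). ABCB8, ABCD3, ABCD4 and ABCF3 stayed between -0.28 and 0.19 in the 3 comparisons.

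Some members moved together with the genes around them on the chromosome. Set beside the median of the other tested genes within 5 Mb, ABCC2 on chromosome 10 was near its neighbours in HSP90α-KO, with 0.77 against a median of 0.63 over 108 genes. In HSP90β-KO, ABCB6 on chromosome 2 differed by -0.89 with a neighbour median of -0.50 over 64 genes, and ABCB10 on chromosome 1 by -0.28 with -0.34 over 75 genes. Both stood further from their neighbours in HSP90α-KO, ABCB6 at -0.52 against a median of 0.01 and ABCB10 at -0.45 against -0.03. ABCG2 and ABCA3 stood apart from the medians of their surroundings. For ABCG2 the neighbour medians were -0.09 in HSP90α-KO, 0.18 in HSP90β-KO and 0.11 in PUHr, and for ABCA3 they were -0.05, 0.06 and 0.00452. Of the ABCG2 neighbours, 7 of 32, 8 of 32 and 7 of 31 were themselves called changed, against 10.3%, 4.48% and 10.1% of all tested genes. Of the ABCA3 neighbours it was 8 of 197, 2 of 197 and 17 of 193. With the neighbour median subtracted, an alternative chosen after seeing the data, 5 members were called changed in HSP90α-KO, 4 in HSP90β-KO and 3 in PUHr. Without the subtraction, 10.3%, 4.48% and 10.1% of all tested genes were called. Their share with it is not given here, so these counts describe the members only.

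Between the knockouts, 9 of 29 members were called changed, 3 with a higher and 6 with a lower level in HSP90α-KO, against 7.14% and 5.57% of all tested genes. The higher ones were ABCA1 (1.86, adjusted p = 1.5e-07), ABCB9 (1.41, adjusted p = 2.8e-10) and ABCC2 (1.27). Among the lower ones were ABCG2 (-4.90), ABCA3 (-2.88, adjusted p = 3.1e-25) and the chromosome 17 genes ABCA8, ABCA6 and ABCA10. ABCA10 passed the filter through the HSP90β-KO libraries alone, where it was high. Of the 9, 2 belong to the drug efflux group, ABCG2 and ABCC2. The neighbours of ABCC2 had a median of 0.61 in this comparison, which left 0.66 and no call with it subtracted. With 1 CPM added, ABCC2 differed by 0.57 and was not called either.

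Around the family, 60 genes in 7 lists of partners and regulators were read from the same fits. In HSP90α-KO 54 of them were tested and 0 were called higher and 1 lower, in HSP90β-KO 0 and 0, and in PUHr 1 of 55 higher and 2 lower, against 5.32% and 5.01%, 1.83% and 2.65%, and 5.37% and 4.69% of all tested genes. By adjusted p alone 18 were higher and 15 lower in HSP90α-KO, 16 and 6 in HSP90β-KO, and 16 and 20 in PUHr, where the shares over all tested genes were 27.5% and 26.6%, 17.2% and 17.2%, and 25.6% and 25.8%. CFTR, the chloride channel of the ABCC branch, had 4 to 11 reads in EV and 0 to 1 in HSP90α-KO, at least 2.17-fold lower when 3 reads per library are taken as the floor, and it was called changed (adjusted p = 0.00055). In PUHr it had 1 read per library against 11 to 16 in P, at least 4.58-fold lower (adjusted p = 2.1e-05). No HSP90α-KO and no PUHr library was above the filter for CFTR, so that in the resistance table it could be tested only through the P libraries, where it is high. TAP1, a peptide transporter of antigen presentation, fell by 1.47 in PUHr (SE 0.16, adjusted p = 1.8e-06), from 5.10 ± 0.339 to 1.81 ± 0.358 CPM. AHR, a ligand-activated transcription factor that acts on ABCG2 among other genes, rose by 1.03 in PUHr (SE 0.09, adjusted p = 1.6e-07), from 7.33 ± 0.806 to 15.1 ± 0.813 CPM. It was 0.71 and 0.73 higher in HSP90α-KO and HSP90β-KO (adjusted p = 1.7e-11 and 2.3e-11). Of the 11 sterol efflux regulators and acceptors, among them NR1H2, NR1H3 and SREBF2, 0 were called changed in any of these comparisons, and 2 were higher and 4 lower by adjusted p alone in HSP90α-KO, against the same 27.5% and 26.6% of all genes.

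The members not tested were few in the knockout table, where ABCB4, a phosphatidylcholine transporter next to ABCB1, had 5, 3 and 8 reads in EV, 0 in each HSP90α-KO library and 7, 12 and 12 in HSP90β-KO. With 3 reads per library as the floor, ABCB4 was at least 2.90-fold lower in HSP90α-KO than in HSP90β-KO, and in the resistance table it had 1 to 4 reads. A count of 0 limits the level to 3 reads and covers counting error only. ABCB4 included, 19 members were not tested in the resistance table, with at most 11 reads in any library. Among them were also the sterol transporters ABCG1, ABCG4, ABCG5 and ABCG8 with at most 3 reads each, the ABCC members ABCC6, ABCC8, ABCC9, ABCC11 and ABCC12 with at most 5, ABCB5 with 1 at most, ABCD2 and ABCA4 with at most 2, ABCA12 with at most 7, and ABCA13 with 0 in all libraries. The 15 members that the knockout table does not list are not analysed there.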

How the data were processed

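RNA of 5 groups of K562 cells with 3 replicates each was sequenced. The authors aligned reads with STAR to hg38, counted them with featureCounts and deposited log2 CPM from edgeR in 2 tables, normalized separately. Versions, the filter behind the knockout table and the strand setting of the counting are not given in the sources used here. CPM and whole reads were recovered from the deposited log2 values: 100% of values came out whole within 0.1 read. Rows without a gene identifier held 0.0270 to 0.0363% of reads and were left out.

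Genes with log2 CPM of at least -1 in at least 3 libraries were tested with limma 3.58.1 (R 4.3.3), moderated with trend, on the deposited log2 CPM, in 1 fit per table over its 9 or 6 libraries, with Benjamini-Hochberg adjustment over all tested genes. Members were called changed when they differed more than 2-fold at an adjusted p under 0.05. Tables were made with Python 3.11.15, pandas 2.3.3, numpy 2.4.6, scipy 1.17.1 and matplotlib 3.10.9. The procedure was tested on simulated data. Exon lengths and positions were from GENCODE 44 (GRCh38) and neighbours were tested genes within 5 Mb. The named genes were every member called changed in any of 4 comparisons, plus ABCB1, ABCG2 and ABCC1, and called genes of the partner lists, with other members named only to account for them. The members and lists were chosen with earlier results of these data known. Alternatives were other filters, added CPM of 1 or 5, quantile normalization, median centring, voom on the recovered reads, a replicate block, adjusted p alone and leaving out each replicate. Some members and 1 marker are not reported here by name, while counts and medians cover all tested members.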

Additional observations from a re-analysis of the deposited data

Results flagged for a closer look

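For 6 of the members reported by name the effects of losing the 2 isoforms had opposite signs, and the direct limma contrast of HSP90α-KO with HSP90β-KO called the difference. The share of all tested genes with this pattern is not given here, so the count describes these members only. On the log2 scale, the difference was -4.90 for ABCG2, -2.88 for ABCA3, -2.01 for ABCA8 and -1.22 for ABCA6, all lower in HSP90α-KO. It was 1.86 for ABCA1 and 1.27 for ABCC2, higher in HSP90α-KO. Of the opposite signs, those of ABCA1 (-0.37) and ABCC2 (-0.50) in HSP90β-KO did not pass the test against EV.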

How the results depend on the processing

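The counts of changed members (6, 4, 3 and 9 in HSP90α-KO, HSP90β-KO, PUHr and between the knockouts) moved with the fold scale. By adjusted p alone they were 22, 20, 16 and 21. Over all 17039 tested genes of the knockout table this rule passed 9230 in HSP90α-KO, 5864 in HSP90β-KO and 10201 between the knockouts. In PUHr it passed 8480 of 16503. With 5 CPM added the counts of members were 1, 0, 1 and 3, and with 1 CPM added HSP90β-KO had 1. With a mean log2 CPM of at least 1, HSP90β-KO had 1 and the knockouts differed in 5. Leaving out a replicate gave 6 to 7, 3 to 6, 2 to 3 and 8 to 10. With the replicate number as a block the counts were 6, 4, 3 and 9, and same-numbered libraries deviated together by a correlation of -0.0481 to 0.0449, so the numbers did not pair them. Except for adjusted p alone, the shares of all tested genes called under these settings are not given here. The counts therefore describe the members only.

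The HSP90β-KO median of 0.15 over all tested members was 0.095 with 5 CPM added, 0.10 with median centring and 0.11 to 0.17 without a replicate. Over drug efflux members it was 0.056 and 0.052, and over the rest 0.11, 0.11 and 0.13 to 0.18. In PUHr the median over all members was -0.063 with centring and -0.055 to 0.0030 without a replicate, and over the rest 0.061 with quantile normalization, -0.014 with centring and -0.016 to 0.041 without a replicate.

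Of 816 values for named members, 730 kept direction and lost no call, 69 fell under a threshold and 17 changed sign, all near 0. The 730 include the calls that ABCA3 gained in HSP90β-KO. ABCB1 was 0.032 in HSP90α-KO with quantile normalization, -0.0086 in HSP90β-KO and 0.0028 between the knockouts with centring. Without a replicate it ran from -0.088 to 0.064, -0.00013 to 0.063, -0.12 to 0.030 between the knockouts and -0.019 to 0.23 in PUHr. ABCC1 ran from -0.069 to 0.042 in HSP90α-KO and -0.073 to 0.072 in PUHr. ABCB11 between the knockouts was 0.0035 with centring and -0.17 to 0.11 without a replicate. The cause was not tested. Some calls of members with few reads, those of ABCA10 in HSP90β-KO and ABCA6 in PUHr among them, were lost with 1 CPM added. ABCG2 in HSP90α-KO lost its call only with 5 CPM added.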

Other observations

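The chromosome 17 ABCA genes differed in level between the separately normalized tables: ABCA6 stood at 5.70 ± 0.525 CPM in EV and at 0.192 ± 0.1001 in parental cells. This was not tested.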
